A study of Homo sapiens with 9 samples.

Results

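The expression of 10 genes of the cytosolic and mitochondrial heat shock system was followed across 9 RNA sequencing libraries of BJAB, a human B-cell lymphoma line. They were the HSP70 genes HSPA1A, HSPA1B and HSPA8, the HSP110 gene HSPH1, the J-domain protein gene DNAJB1, the HSP90 gene HSP90AA1, the mitochondrial chaperonin pair HSPD1 and HSPE1, the small heat shock protein gene HSPB1, and HSF1, the heat shock transcription factor. Each was taken by its symbol through its Ensembl identifier, out of 57500 genes counted, and all 10 passed the filter on low counts that left 16672 genes for testing.

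Heat shock proteins are chaperones that bind unfolded or partly folded proteins and help them to fold, assemble or be degraded. HSP70 proteins work in cycles of ATP hydrolysis that J-domain proteins start and that nucleotide exchange factors such as HSP110 end, and HSP90 acts on clients that HSP70 hands over. Under proteotoxic stress HSF1 trimerises and binds heat shock elements, inverted repeats of the unit nGAAn, in front of the inducible genes, whereas constitutive relatives such as HSPA8 are abundant in unstressed cells.

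Of these libraries, 3 were of the parental line (control), 3 of BJAB given the long isoform of TACI (TACI long) and 3 of BJAB given its short isoform (TACI short). TACI is the receptor for BAFF and APRIL encoded by TNFRSF13B, and the study set out to examine each isoform separately in resting cells. All cells were labelled untreated and Burkitt lymphoma in origin, and RNA came from sorted cells. Sample titles describe stable transfection and the series text transduction, and neither says whether a line is 1 clone, which promoter drives the isoform or whether an empty vector was used in the controls. Nothing in the labels says that replicates came from separate cultures, so each p-value refers only to spread among the libraries at hand, part or all of which may be technical.

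Total counts per library ran from 40322136 to 50079203. TNFRSF13B stood at 28.8, 15.2 and 14.6 CPM (counts scaled to a common library size, here each count over its column total) in the controls, at 691, 704 and 738 CPM in TACI long, and at 2964, 2965 and 2655 CPM in TACI short. Its log2 fold change between TACI short and TACI long was 1.88 ± 0.23 (SE, n = 3 per group, adjusted p = 0.000332), so isoform and TNFRSF13B level differed together and cannot be told apart. All 8 B-cell markers were detected in each group, with a summed level of 3839 to 3968 CPM in control, 3531 to 3568 in TACI long and 3136 to 3277 in TACI short. TACI short replicates 2 and 3 stood apart: 32882 and 32209 genes had at least 1 count there, against 24307 to 25938 in the other 7 libraries. Their summed level of 13 myeloid markers was 129 and 125 CPM, against 28.9 CPM in TACI short replicate 1 and 11.8 to 29.9 CPM in the control and TACI long libraries. C1QB and S100A8 were at 0 in every library.

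Fold changes below come from edgeR's quasi-likelihood test over all 9 libraries with TMM scaling, are given on the log2 scale with their standard error (SE), and count as calls where the p adjusted by Benjamini-Hochberg over all genes tested was under 0.05. Scaling matters for TACI short. The median log2 fold change of all genes between TACI short and control was 0.03 with TMM factors, 0.11 with upper-quartile factors and 0.16 with column totals, so TACI short CPM values read high beside the fitted fold changes. With TMM factors 5256 genes were called higher and 5179 lower in TACI short, 50.4% of the calls being higher, against 59.3% with upper-quartile factors and 64.6% with column totals. Between TACI short and TACI long the medians were 0.05, 0.14 and 0.18 in the same order, and 51.2%, 58.8% and 62.4% of the calls were higher.

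HSPA1A and HSPA1B, the stress-inducible HSP70 pair, lie near each other on chromosome 6 and encode nearly the same protein. HSPA1A (ENSG00000204389) spans chr6:31815464-31817946 on the plus strand and HSPA1B (ENSG00000204388) chr6:31827735-31830255 on the plus strand, in GRCh38. Of all 50-base stretches in HSPA1A transcripts 71.3% also occur in HSPA1B, so a read from either gene can often not be placed. The likeness reaches upstream of the start sites, as the next pair of RefSeq stretches (GRCh38.p14) shows. They differ at 1 of 71 bases, and the capitals mark a paired heat shock unit.

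HSPA1A, chr6:31815393-31815463, plus strand: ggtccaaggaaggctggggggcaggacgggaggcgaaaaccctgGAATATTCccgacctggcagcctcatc
HSPA1B, chr6:31827589-31827659, plus strand: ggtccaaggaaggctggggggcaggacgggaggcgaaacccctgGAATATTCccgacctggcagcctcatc

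The paired unit was searched as GAANNTTC and TTCNNGAA, and an extended element as TTCNNGAANNTTC and GAANNTTCNNGAA, each on both strands of a window from 250 bases before to 50 after every RefSeq start site. An extended match always contains paired matches. The extended element was present in 172 of 35116 such windows (0.49%) and the paired unit in 4737 (13.5%). Extended matches were found at HSPA8, HSP90AA1 and a second start site of HSPD1, and paired matches alone at HSPA1A, HSPA1B, DNAJB1 and HSPB1. The windows of HSPH1 and HSPE1 held neither run of letters. No result of the search is given here for HSF1. The HSPD1 matches also lie upstream of the RefSeq start site of HSPE1, beyond the edge of its window. The stretches below show the matches in capitals, written 5′ to 3′ on the strand of the gene, for the start sites whose windows held them. They are given to show how the units lie at each gene, and the HSP90AA1 stretch ends just before a further paired match.

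DNAJB1, chr19:14518421-14518497, minus strand: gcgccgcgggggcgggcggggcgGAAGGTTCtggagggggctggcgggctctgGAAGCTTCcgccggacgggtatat
HSPA8 (distal), chr11:123062346-123062375, minus strand: ggcgagcttGAAAGTTCCAGAAcgctgcgg
HSPA8 (proximal), chr11:123062171-123062200, minus strand: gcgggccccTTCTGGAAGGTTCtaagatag
HSP90AA1, chr14:102087113-102087141, minus strand: ggagggttcTTCCGGAAGGTTCgggaggc
HSPD1, chr2:197500061-197500090, minus strand: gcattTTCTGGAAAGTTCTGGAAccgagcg

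HSPA8 carried an extended match at -230 to -218 and another at -55 to -43 from its start site, HSP90AA1 an extended match at -88 to -76 and a further paired match at -68 to -61, and HSPD1 a pair of overlapping matches at -245 to -233 and -240 to -228 from its second start. The HSP90AA1 positions are from 1 of its 2 RefSeq start sites, and the window of the other held no match. The printed DNAJB1 paired matches lay at -77 to -70 and -47 to -40 from 1 of its 3 start sites. Another start site had a paired match at 2 to 9 and the outermost had none. HSPA1A and HSPA1B each had a single paired match, at -106 to -99 and -105 to -98. A match is a run of letters and not a measured binding site.

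Levels between genes were compared per counted gene length, in TPM, which divides each count by that length and then scales the library to a fixed sum. The counted length joins all annotated exons of a gene, for example 5307 bases for HSF1 and 2521 for HSPA1B. It can exceed the transcript present, so the order between genes depends on it. In control cells the order was HSP90AA1 at 1669 ± 6.18 TPM (SD, n = 3), HSPD1 at 1431 ± 21.4, HSPA8 at 1389 ± 39.0, HSPE1 at 373 ± 18.6, HSPH1 at 213 ± 6.03, DNAJB1 at 102 ± 2.98, HSF1 at 54.6 ± 3.13 and HSPA1B at 46.3 ± 0.793 TPM. HSPA1A and HSPB1 were near the bottom at 1.4 ± 0.31 and 1.3 ± 0.50 TPM. HSPD1 and HSPA8 overlapped between control libraries, as did HSPA1A and HSPB1, while all other neighbours in the order were separated. HSPA8 stood above HSPD1 in TACI long (1435 ± 9.59 against 1262 ± 16.7 TPM). In TACI short it stood below HSPD1, as in control, now without overlap (981 ± 38.6 against 1260 ± 31.9 TPM). By this measure HSPA1B passed HSF1 in both lines, at 65.0 ± 2.64 against 48.1 ± 0.936 TPM in TACI long and 111 ± 7.80 against 51.2 ± 1.63 TPM in TACI short. By its mean HSPB1 passed HSPA1A in TACI short (7.19 ± 5.32 against 3.04 ± 0.393 TPM), with libraries that overlapped. All 10 genes together took 0.708 to 0.714% of the counts in control, 0.699 to 0.702% in TACI long and 0.654 to 0.675% in TACI short, and the 3 ranges did not overlap.

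**Figure D1:**
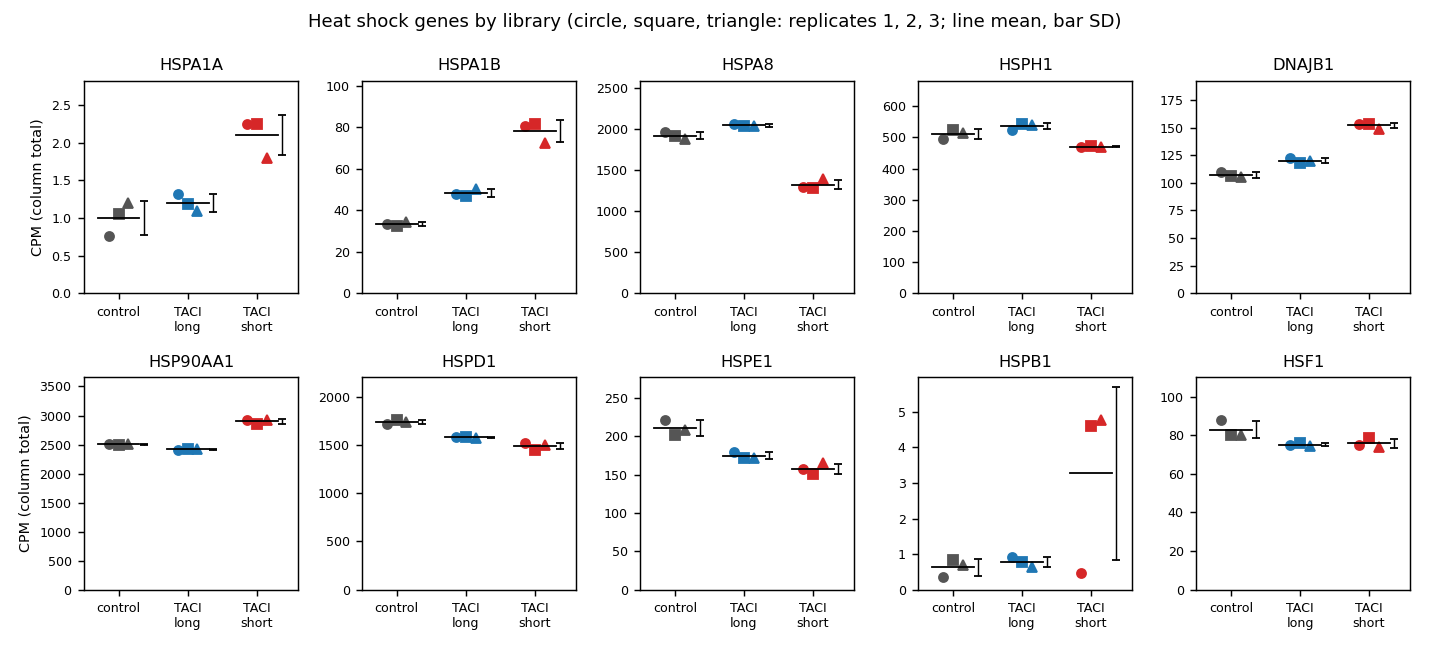
CPM over the column total (y axis, from 0) of each of the 10 genes in control, TACI long and TACI short; points are libraries (circle, square and triangle for replicates 1, 2 and 3), the line is the group mean and the bar its SD. HSPA1B and DNAJB1 climb from control to TACI long to TACI short, HSPD1 and HSPE1 step down, HSPA8 is low in TACI short, and HSPB1 is high in TACI short replicates 2 and 3 alone.

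Of the inducible HSP70 pair, HSPA1B was read at 33.2, 32.6 and 34.2 CPM in the control libraries, at 47.8, 46.8 and 50.3 CPM in TACI long and at 80.5, 81.8 and 72.3 CPM in TACI short. The 3 groups were well separated, with every TACI long library above every control library and every TACI short library above both. HSPA1B rose 1.45-fold in TACI long (log2 fold change 0.54 ± 0.05, adjusted p = 1.25e-08) and 2.14-fold in TACI short (1.10 ± 0.05, adjusted p = 2.53e-14), and was 1.48-fold higher in TACI short than in TACI long (0.56 ± 0.05, adjusted p = 1.28e-09). In bulk RNA, fewer cells of a kind and less RNA per cell cannot be told apart, here and for each gene below.

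HSPA1A was counted far lower, at 35 to 100 counts a library. It stood at 0.761, 1.06 and 1.20 CPM in control, 1.32, 1.18 and 1.09 in TACI long, and 2.25, 2.26 and 1.80 in TACI short. Control and TACI long overlapped, and all TACI short libraries lay above both. The fold change was 0.93 ± 0.20 in TACI short against control (adjusted p = 0.000301) and 0.68 ± 0.20 against TACI long (adjusted p = 0.00421), while TACI long against control did not pass (0.26 ± 0.21, adjusted p = 0.326). The count of HSPA1B was 34.3 ± 8.13 times that of HSPA1A in control, 40.6 ± 5.11 times in TACI long and 37.4 ± 2.43 times in TACI short (mean ± SD of 3 libraries), and these ranges overlapped. With the counts of the pair summed into 1 gene, the fold change was 0.53 in TACI long (adjusted p = 1.6e-08) and 1.10 in TACI short (adjusted p = 2.76e-14). The sum removes the question of how assigned reads were split between the pair. It does not bring back reads left unassigned, and it consists almost wholly of HSPA1B counts.

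HSPA8 (ENSG00000109971, chr11:123057489-123063230, minus strand), the constitutive cytosolic HSP70, moved against its inducible relatives in TACI short. Its levels were 1967, 1924 and 1885 CPM in control, 2073, 2037 and 2042 in TACI long, and 1299, 1286 and 1391 in TACI short. Every TACI short library was below every other library, and every TACI long library was a little above the controls. HSPA8 fell 1.59-fold in TACI short against control (-0.67 ± 0.05, adjusted p = 1.22e-11) and was 1.69-fold lower than in TACI long (-0.76 ± 0.05, adjusted p = 7.65e-13). The TACI long difference of 0.09 ± 0.05 was not called (adjusted p = 0.0962). It was called with other settings, at an adjusted p of 0.022 with DESeq2, 0.0413 without TACI short replicate 1 and 0.0101 without TACI short replicate 2. The HSPA8 exons shared 8.23% of 50-base stretches with other genes, most often with the pseudogene HSPA8P1. That share was larger for HSPD1 (13.2%), HSPE1 (11.7%) and HSP90AA1 (11.3%), and smaller for HSPB1 (5.84%), DNAJB1 (2.02%), HSPH1 (0%) and HSF1 (0%).

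HSPH1 (ENSG00000120694, chr13:31134974-31162388, minus strand) is an HSP110 protein that releases ADP from HSP70. It was read at 495, 524 and 514 CPM in control, 524, 545 and 539 in TACI long, and 468, 471 and 470 in TACI short. TACI short was the lowest group with no overlap, and the lowest TACI long library was level with the highest control library to 3 digits. HSPH1 fell in TACI short by a log2 fold change of -0.25 ± 0.04 against control (adjusted p = 9.77e-06) and -0.32 ± 0.04 against TACI long (adjusted p = 2.13e-07). TACI long against control was not called, at 0.07 ± 0.04 (adjusted p = 0.154), but was without TACI short replicate 2 (adjusted p = 0.0375).

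DNAJB1 (ENSG00000132002, chr19:14514770-14529770, minus strand), the heat-inducible J-domain partner of HSP70, was higher in both lines, like HSPA1B. Its levels were 110, 106 and 105 CPM in control, 123, 118 and 119 in TACI long, and 154, 153 and 149 in TACI short, with no overlap between any of the 3 groups. DNAJB1 rose 1.12-fold in TACI long (0.17 ± 0.04, adjusted p = 0.00242) and 1.30-fold in TACI short (0.38 ± 0.04, adjusted p = 6.73e-08), and was 0.21 ± 0.04 higher in TACI short than in TACI long (adjusted p = 0.000147). Its exons overlap TECR on the other strand over 6.21% of their length, and the libraries do not keep strand. The count of DNAJB1 relative to HSPA8, within each library and free of any scaling factor, was 0.0556 ± 0.000542 in control, 0.0585 ± 0.000643 in TACI long and 0.115 ± 0.0066 in TACI short (mean ± SD of 3 libraries).

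HSP90AA1 (ENSG00000080824, chr14:102080738-102139699, minus strand) encodes the stress-responsive cytosolic HSP90 isoform. It was read at 2503, 2494 and 2517 CPM in control, 2410, 2417 and 2420 in TACI long, and 2921, 2856 and 2925 in TACI short. By CPM the groups did not overlap, with TACI long the lowest and TACI short the highest. After TMM scaling the difference between TACI short and control was 0.08 ± 0.04 and not called (adjusted p = 0.0942), against 0.21 with column totals (adjusted p = 6.92e-07). It was also called without TACI short replicate 2, at 0.12 (adjusted p = 0.00173). TACI short was higher than TACI long by 0.13 ± 0.04 (adjusted p = 0.00837), a call that was lost without any 1 of the TACI long replicates or control replicate 2 or 3 (adjusted p = 0.0634 to 0.105), and TACI long against control was not called (-0.05 ± 0.04, adjusted p = 0.355).

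HSP90AB1, the constitutive HSP90 isoform and no member of the 10, went down. It stood at 3097, 3029 and 3086 CPM in control, 2590, 2660 and 2669 in TACI long, and 1960, 1923 and 2002 in TACI short, and it fell in TACI long (-0.22, adjusted p = 0.000218) and 1.71-fold in TACI short (-0.77 ± 0.04, adjusted p = 4.93e-13). The HSP90AA1 count was 0.816 ± 0.00756 times that of HSP90AB1 in control, 0.915 ± 0.0134 times in TACI long and 1.48 ± 0.0155 times in TACI short (mean ± SD of 3 libraries). The 3 groups did not overlap in this ratio, which needs no scaling factor.

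**Figure D2:**
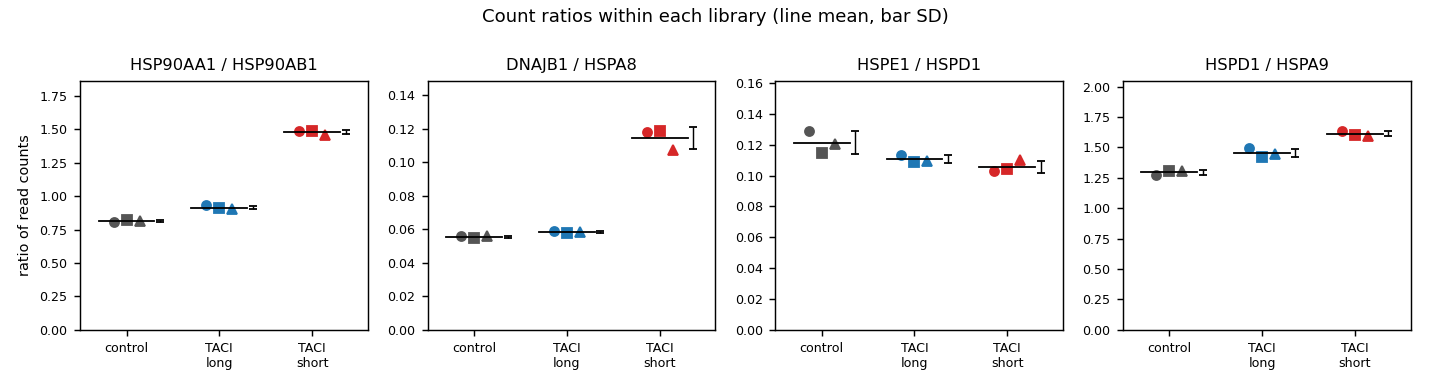
Ratios of read counts between chaperone pairs within each library (y axis, no unit, from 0) for control, TACI long and TACI short; points are libraries, lines means and bars SD. HSP90AA1 over HSP90AB1 goes from 0.816 in control to 1.48 in TACI short and DNAJB1 over HSPA8 from 0.0556 to 0.115. HSPE1 over HSPD1 goes down from 0.121 in control to 0.106 in TACI short.

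HSPD1 and HSPE1 encode the chaperonin HSP60 and its lid HSP10, which fold proteins imported into the mitochondrial matrix. They are neighbours on chromosome 2, transcribed away from each other, with RefSeq start sites 105 bases apart and a second HSPD1 start further inside that gene. HSPD1 (ENSG00000144381, chr2:197486581-197516737, minus strand) was read at 1717, 1759 and 1736 CPM in control, 1585, 1579 and 1571 in TACI long, and 1522, 1453 and 1495 in TACI short. The groups stepped down in that order without overlap. HSPD1 fell by a log2 fold change of -0.14 ± 0.04 in TACI long (adjusted p = 0.0115) and 1.27-fold in TACI short (-0.35 ± 0.04, adjusted p = 2.85e-07), and was lower in TACI short than in TACI long (-0.21 ± 0.04, adjusted p = 0.000166). The TACI long call was lost when any 1 of the TACI long or control replicates was left out (adjusted p = 0.057 to 0.0893), although the fold change stayed between -0.14 and -0.12.

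HSPE1 (ENSG00000115541, chr2:197499994-197503457, plus strand) stood at 221, 201 and 209 CPM in control, 180, 172 and 172 in TACI long, and 157, 151 and 165 in TACI short. The groups again stepped down without overlap. HSPE1 fell 1.21-fold in TACI long (-0.27 ± 0.05, adjusted p = 7.84e-05) and 1.46-fold in TACI short (-0.55 ± 0.05, adjusted p = 2.1e-09), with a difference of -0.28 ± 0.05 between TACI short and TACI long (adjusted p = 3.57e-05). Per count of HSPD1 there were 0.121 ± 0.00732 counts of HSPE1 in control, 0.111 ± 0.00247 in TACI long and 0.106 ± 0.00384 in TACI short, and the lines overlapped each other but not the controls. Exons of the pair overlap over 281 bases, 14.2% of HSPE1 and 6.62% of HSPD1, where reads without strand cannot be assigned. HSPE1 exons also overlap those of HSPE1-MOB4, on the same strand, over 9.71% of their length.

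HSPA9, the mitochondrial HSP70 mortalin and no member of the 10, was read at 1349, 1343 and 1328 CPM in control, 1061, 1108 and 1084 in TACI long, and 930, 905 and 936 in TACI short, and fell in TACI long (-0.30, adjusted p = 2.18e-06) and in TACI short (-0.66, adjusted p = 4.23e-12). HSPD1 counts were 1.30 ± 0.0209 times those of HSPA9 in control, 1.46 ± 0.0351 times in TACI long and 1.61 ± 0.0209 times in TACI short, with no overlap between groups.

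HSPB1 (ENSG00000106211, chr7:76302544-76304295, plus strand) encodes HSP27, a small heat shock protein that holds unfolded proteins without ATP. It was nearly silent, at 17 to 239 counts a library. Its levels were 0.370, 0.827 and 0.686 CPM in control, 0.922, 0.768 and 0.649 in TACI long, and 0.473, 4.59 and 4.77 in TACI short. TACI short replicate 1 lay within the control range and replicates 2 and 3 lay above every other library. The fold change of TACI short was 2.24 ± 0.81 against control (adjusted p = 0.0512) and 1.92 ± 0.80 against TACI long (adjusted p = 0.0716), neither called, and TACI long against control was 0.32 ± 0.87 (adjusted p = 0.809). Without TACI short replicate 1 the difference from control was 2.75 (adjusted p = 8.67e-14), and without replicates 2 and 3 it was -0.49 (adjusted p = 0.355). With all 9 libraries it was called by DESeq2 (adjusted p = 0.0078), with upper-quartile factors (adjusted p = 0.0456) and with column totals (adjusted p = 0.042).

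The same pair of libraries carried the high myeloid marker sum. Across TACI short replicates 1, 2 and 3, epithelial and fibroblast markers summed to 86.5, 114 and 115 CPM, and T and NK cell markers to 4.57, 6.77 and 5.45 CPM. Those sums were 103 to 107 and 4.15 to 4.37 CPM in control, and 117 to 126 and 3.82 to 4.23 CPM in TACI long. Of the 5 epithelial and fibroblast markers tested, EPCAM had the highest mean log2 CPM, 6.55, against 2.59 for VIM, the next. In TACI short against control EPCAM (-0.49) and DCN (-0.45) were called lower and COL1A1 higher (1.83). VIM (2.01) and COL1A2 (1.19) were not called. The median of the 5 was 1.19, and -0.33 without TACI short replicates 2 and 3. The part of other cells in the HSPB1 level was not tested. CRYAB, another small heat shock protein gene, had 4.05, 16.6 and 14.2 CPM in TACI short against 2.11 to 2.16 CPM in control. It was called higher in TACI short (2.30, adjusted p = 0.00724) and also, at a lower 0.83, without replicates 2 and 3 (adjusted p = 0.000255). BAG3, a heat-inducible HSP70 co-chaperone, was picked out after its values were seen: it had 0.563, 3.45 and 3.02 CPM in TACI short and 0.326 to 0.707 CPM in control (1.88, adjusted p = 0.0508, not called).

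**Figure D3:**
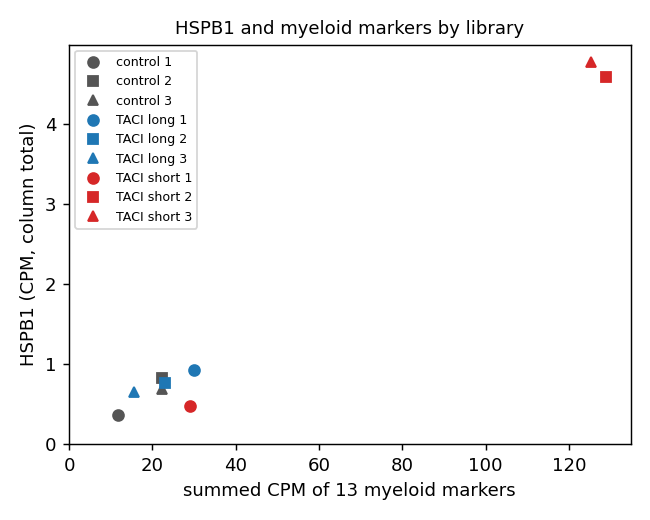
HSPB1 (y axis, CPM over the column total) against the summed CPM of 13 myeloid markers (x axis) in the 9 libraries; colours mark the group and shapes the replicate. TACI short replicates 2 and 3 sit at 4.59 and 4.77 CPM of HSPB1 and 129 and 125 CPM of markers, and the other 7 libraries lie below 1 CPM of HSPB1.

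HSF1 (ENSG00000185122, chr8:144291591-144314722, plus strand), the factor itself, was read at 87.9, 80.2 and 80.3 CPM in control, 75.1, 75.8 and 74.6 in TACI long, and 74.9, 78.3 and 73.9 in TACI short. Both lines lay below all controls and overlapped each other. HSF1 fell in TACI long (-0.14 ± 0.05, adjusted p = 0.0138) and in TACI short (-0.26 ± 0.05, adjusted p = 3.13e-05). The TACI long call was lost without control replicate 1 (adjusted p = 0.209) or any 1 of the TACI long replicates (adjusted p = 0.0625 to 0.0789). TACI short against TACI long was -0.12 ± 0.05 with TMM factors (adjusted p = 0.0235), lost without TACI short replicate 3 (adjusted p = 0.0601), and 0.01 with column totals (adjusted p = 0.818), so its direction rests on the scaling. The message level of HSF1 says nothing of its trimerisation or phosphorylation, which were not measured.

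Counted over the 10 genes, TACI long against control had 2 called higher (HSPA1B and DNAJB1) and 3 called lower (HSPD1, HSPE1 and HSF1), where 51.1% of all genes tested were called, 25.2% higher and 25.9% lower. TACI short against control had 3 called higher (HSPA1A, HSPA1B and DNAJB1) and 5 called lower (HSPA8, HSPH1, HSPD1, HSPE1 and HSF1), where 62.6% of all genes were called, 31.5% higher and 31.1% lower. TACI short against TACI long had 4 higher, the same 3 and HSP90AA1, and 5 lower, where 68.8% of all genes were called, 35.2% higher and 33.6% lower. With so many genes called, these counts alone do not set the heat shock genes apart. Their median log2 fold change was 0.08 in TACI long and -0.08 in TACI short, beside -0.00 and 0.03 over all genes tested.

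Size gave another view. At a called change of at least 1.5-fold there was no member in TACI long, where 17.5% of all genes passed, and 3 in TACI short (HSPA1A, HSPA1B and HSPA8), where 26.2% passed. In TACI short 15.4% of all genes had a larger change in size than HSPA1B and 27.9% a larger one than HSPA8, whereas 48.9% had a larger one than DNAJB1. CPM groups did not overlap for 8 members in TACI long against control (60.7% of all genes), 4 of them higher (30.1%) and 4 lower (30.6%), with HSPA1A and HSPB1 overlapping. In TACI short against control 9 members did not overlap (66.4%), 4 higher (42.1%) and 5 lower (24.4%), with HSPB1 overlapping. In TACI short against TACI long 8 did not (71.6%), 4 higher (43.8%) and 4 lower (27.8%), with HSPB1 and HSF1 overlapping. The comparisons with control share the control libraries, so their values are given side by side and not correlated.

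**Figure D4:**
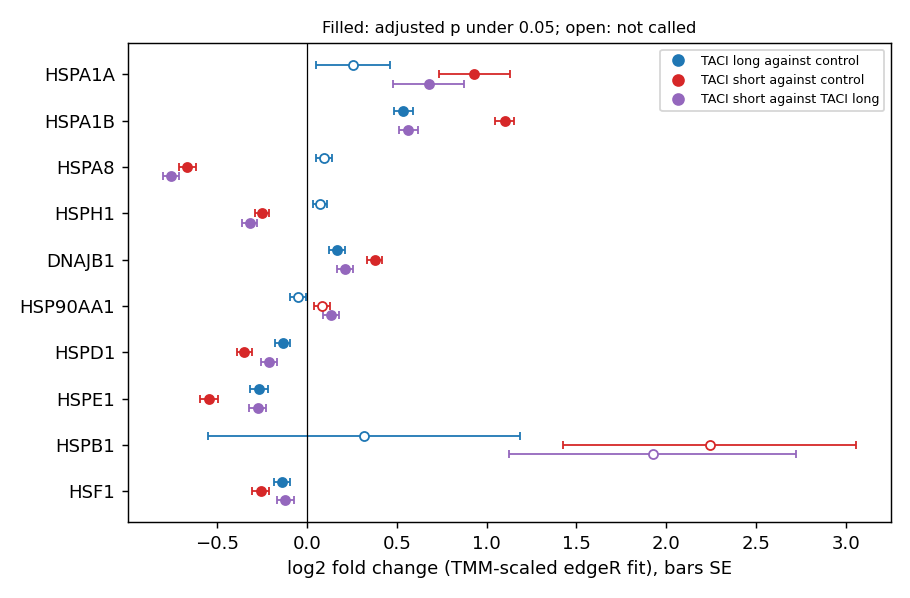
Log2 fold change (x axis, TMM-scaled edgeR fit) of the 10 genes (y axis) for TACI long against control, TACI short against control and TACI short against TACI long; bars are SE, filled points passed an adjusted p under 0.05 and open points did not. HSPA1B reaches 1.10 and HSPA8 -0.67 in TACI short, and HSPB1 at 2.24 has by far the widest bar.

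The other chaperone genes were read from lists chosen by function or symbol. Over all genes tested, 25.2% were called higher and 25.9% lower in TACI long, and 31.5% and 31.1% in TACI short. A list count near those shares does not set the list apart, here and in each list below. Of 14 genes for HSP90 and its co-chaperones, 5 were called higher and 4 lower in TACI long, and 0 higher and 13 lower in TACI short by edgeR (median log2 fold change -0.28). At an unadjusted p under 0.05, and with DESeq2, 0 were higher there too. CDC37, the kinase co-chaperone, fell in both lines (-0.27, adjusted p = 3.02e-06, and -0.41, adjusted p = 3.21e-09). The p23 gene PTGES3 rose in TACI long (0.12, adjusted p = 0.0239) and fell in TACI short (-0.37, adjusted p = 9.39e-08). FKBP5, an HSP90-bound immunophilin, also rose in TACI long (0.23, adjusted p = 0.000191) and fell in TACI short (-0.36, adjusted p = 5.29e-07). With column totals 1 was higher and 10 lower in TACI short.

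Of 14 genes for the cytosolic chaperonin TRiC and its feeder prefoldin, 3 were higher and 4 lower in TACI long, and 0 higher and 13 lower in TACI short by edgeR (median -0.30). In TACI short 0 were higher at an unadjusted p under 0.05 or with DESeq2 as well, and 10 were lower with column totals. CCT2, a TRiC subunit, went from 632, 625 and 634 CPM in control and 652, 646 and 642 in TACI long to 496, 476 and 507 in TACI short, a fall of -0.48 in TACI short (adjusted p = 1.54e-09) with no call in TACI long (0.04, adjusted p = 0.508). Its groups TACI short and control did not overlap. The prefoldin genes split: VBP1 rose (0.35, adjusted p = 2.87e-07) and PFDN6 fell (-0.35, adjusted p = 1.28e-06) in TACI long, and both fell in TACI short.

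Of 7 nucleotide exchange factor genes, 2 were higher and 2 lower in TACI long, and 0 higher and 6 lower in TACI short by edgeR, where 1 (BAG3) was higher at an unadjusted p under 0.05 and with DESeq2. BAG1, which binds HSP70 and releases its nucleotide, fell from 243, 232 and 240 CPM in control to 198, 192 and 197 in TACI long and 144, 138 and 147 in TACI short, 1.82-fold down in TACI short (-0.87, adjusted p = 1.16e-13). BAG5 rose in TACI long (0.21, adjusted p = 0.000144) and fell in TACI short (-0.49, adjusted p = 5.57e-10).

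Of 16 J-domain genes besides DNAJB1, 6 were higher and 1 lower in TACI long, and 4 higher and 11 lower in TACI short. DNAJA1, the abundant cytosolic HSP70 partner, stood at 421, 419 and 405 CPM in control, 505, 512 and 508 in TACI long and 302, 294 and 302 in TACI short. It rose in TACI long (0.30, adjusted p = 2.26e-06), fell in TACI short (-0.60, adjusted p = 1.71e-11) and differed between the lines by -0.89 (adjusted p = 7.88e-15). DNAJB4, closely related to DNAJB1, was at 5.15, 5.07 and 5.27 CPM in control, 5.10, 5.68 and 4.66 in TACI long and 14.3, 13.4 and 14.5 in TACI short, and rose 2.50-fold in TACI short (1.32, adjusted p = 8.31e-12). DNAJB2 rose in both lines (0.75, adjusted p = 3.26e-10, and 0.65, adjusted p = 2.14e-09), and DNAJC2, a ribosome-bound J-domain protein, fell in both (-0.50, adjusted p = 1.26e-09, and -0.74, adjusted p = 8.48e-13).

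Of 8 other HSP70 family genes tested, 2 were higher and 1 lower in TACI long, and 4 higher and 3 lower in TACI short. HSPA4L, an HSP110 relative, was at 2.11, 2.76 and 2.49 CPM in control, 1.80, 2.00 and 2.27 in TACI long and 10.04, 10.6 and 10.2 in TACI short, a 3.83-fold rise in TACI short (1.94, adjusted p = 1.71e-12) while HSPH1 fell. HSPA4, the third HSP110 gene, fell in both lines (-0.11, adjusted p = 0.0202, and -0.42, adjusted p = 3.67e-09). HSPA13, a microsome-associated HSP70, rose in both (0.49, adjusted p = 1.61e-07, and 0.36, adjusted p = 6.46e-06). HSPA6, the strictly heat-inducible HSP70, did not pass the filter on low counts.

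Of 18 mitochondrial chaperone and protease genes, 1 was higher and 8 lower in TACI long (median -0.20), and 1 higher and 14 lower in TACI short (median -0.24). The lower count in TACI short was 8 with column totals and 9 without replicates 2 and 3. TIMM44, which tethers HSPA9 to the import channel, fell in both lines (-0.41, adjusted p = 2.85e-07, and -0.59, adjusted p = 4.76e-10), and the matrix J-domain gene DNAJA3 likewise (-0.27, adjusted p = 1.48e-05, and -0.45, adjusted p = 4.13e-09). HTRA2, an intermembrane space protease, was lowest in TACI long at 29.7, 29.4 and 28.2 CPM, against 44.2, 40.6 and 43.5 in control and 41.5, 41.9 and 39.2 in TACI short (-0.55 in TACI long, adjusted p = 3.03e-09).

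**Figure D5:**
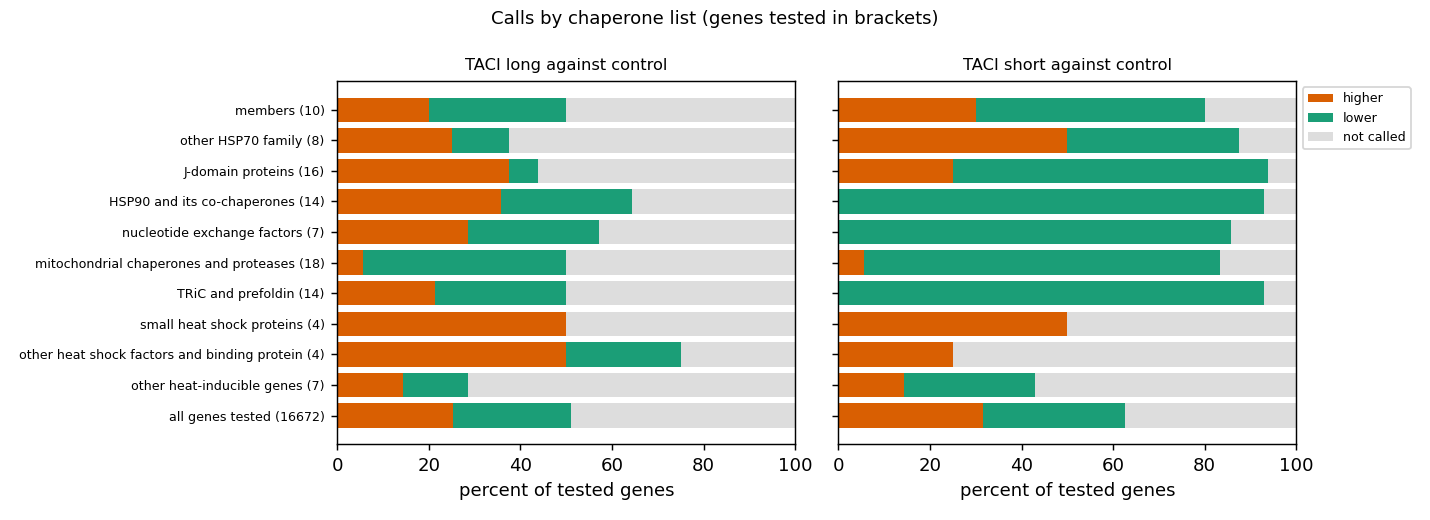
Percent of the tested genes (x axis) called higher, called lower or not called in the 10 genes, each wider chaperone list and all 16672 genes, for TACI long against control and TACI short against control; the number tested is in brackets. The HSP90 and TRiC lists have no gene called higher in TACI short and 13 of 14 called lower, while in TACI long both hold calls in each direction.

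Of 9 genes listed as small heat shock proteins, some by symbol alone, 4 were tested, with 2 higher and 0 lower by edgeR in either line. None was lower at an unadjusted p under 0.05 or with DESeq2, while in TACI short 3 were higher at an unadjusted p and 1 with DESeq2. HSPB11, which was listed for its symbol, rose in TACI long (0.57, adjusted p = 2.35e-09). HSPB6 rose in TACI short (0.72, adjusted p = 0.0361) at 1.17, 0.769 and 0.939 CPM against 0.413 to 0.664 CPM in control. Of 4 other heat shock factor genes and factor-binding genes tested, 2 were higher and 1 lower in TACI long and 1 was higher in TACI short. HSBP1, which binds HSF1, rose in TACI long (0.57, adjusted p = 1.51e-09) and was not called in TACI short (-0.01, adjusted p = 0.902). HSF4, a factor of the same family, was at 0.761, 0.574 and 0.686 CPM in control, 0.142, 0.0658 and 0.0695 in TACI long and 2.09, 2.41 and 1.68 in TACI short. It fell in TACI long (-2.84, adjusted p = 1.59e-07) and rose in TACI short (1.47, adjusted p = 1.06e-05), on 3 to 97 counts a library.

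Of 7 other heat-inducible genes, 1 was higher and 1 lower in TACI long and 1 higher and 2 lower in TACI short. The polyubiquitin gene UBB was the higher one in both lines, at 567, 524 and 546 CPM in control, 641, 601 and 636 in TACI long and 751, 721 and 762 in TACI short (0.20, adjusted p = 0.00138, and 0.32, adjusted p = 4.46e-06). Its 3 groups did not overlap.

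Likeness over the libraries was described by Pearson's r of log2 CPM over 9 libraries, among 7423 genes. The genes most like HSPH1 were SMARCC1 (r = 0.999), TNPO1 (0.997), ZFR (0.997), VIRMA (0.996) and NUP50 (0.996), and those most like HSPD1 were PSMG1 (0.994), ITPA (0.994), NUP107 (0.994), ABCE1 (0.994) and STRAP (0.992). Within the 10 genes, r was 0.98 between HSPA1B and DNAJB1, 0.97 between HSPA8 and HSPH1 and 0.97 between HSPD1 and HSPE1, and -0.95 between HSPA1B and HSPD1. These points share libraries and fall into 3 groups, so r describes mostly the group differences.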

How the data were processed

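Polyadenylated RNA of 9 BJAB libraries, 3 per group, was prepared with Nextera XT, which does not keep strand, per the labels' protocols. The values are raw read counts per Ensembl gene as deposited by the authors. FastQC, STAR 2.4.0h, HTSeq and build hg38 are named in the submitters' processing notes, while the deposited count files have the column layout of featureCounts. The annotation release, strand setting and filters are not given in the sources used here. Of 57500 genes 56898 matched GENCODE 29 by identifier.

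After filterByExpr (minimum count 10, minimum total 15) and TMM scaling, 1 model with a term per group was fitted to the 9 libraries in edgeR 4.0.16 (R 4.3.3), and quasi-likelihood F tests with robust dispersion were taken from it. The fit left 6 degrees of freedom, and the common coefficient of biological variation was 0.0792. The SE is the size of the log2 fold change over the square root of F. CPM uses column totals and TPM the deposited lengths. The fit was also run on simulated counts drawn with dispersions estimated from these libraries. Far fewer genes were changed there than were called here, so that run does not bear on the scaling in TACI short. DESeq2 1.42.0 and limma-voom (limma 3.58.1) were among 19 alternatives, which also covered scaling, filters, samples fitted, the replicate block, each library left out and TACI short replicates 2 and 3 left out. Replicates differed by a chi-square per degree of freedom of 2.45 to 18.2, so none was a copy. Sequences and start sites are from RefSeq (GRCh38.p14).

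The members and gene lists were chosen with earlier results of these data known. The genes named are the 10 members, TNFRSF13B, up to 4 called genes per list and comparison by adjusted p, and the 5 genes most like HSPH1 and HSPD1. BAG3 was picked out later.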

Additional observations from a re-analysis of the deposited data

Results flagged for a closer look

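The effects of the long and the short isoform against the same controls differed in size for 3 of the heat shock genes whose 2 fitted values had opposite signs. The difference between the lines was tested in edgeR's quasi-likelihood fit, and opposite direction was not, since none of the TACI long effects was called. For HSPA8 the difference of TACI short minus TACI long was -0.76 on the log2 scale (adjusted p = 7.65e-13), with 0.09 in TACI long (adjusted p = 0.0962) and a called -0.67 in TACI short. For HSPH1 it was -0.32 (adjusted p = 2.13e-07), with 0.07 in TACI long (adjusted p = 0.154) and a called -0.25 in TACI short. For HSP90AA1 it was 0.13 (adjusted p = 0.00837), with -0.05 and 0.08, neither of them called. That difference no longer passed without any 1 of the TACI long replicates or control replicate 2 or 3 (adjusted p = 0.0634 to 0.105).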

How the results depend on the processing

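Across 30 fold changes of the 10 genes and 19 alternatives, 564 values were obtained: 511 kept direction and side of the threshold, 28 came to pass it, 22 no longer did and 3 reversed. HSF1 in TACI short against TACI long turned from -0.12 to 0.011 with column totals, and HSPB1 without TACI short replicates 2 and 3 turned to -0.49 against control and -0.82 against TACI long. The count called higher in TACI long went from 2 to 4 with DESeq2, a filter of 1 CPM in 3 libraries, column totals, only the groups compared, or without TACI short replicates 2 and 3, and ranged from 2 to 4 with each library left out, the 4 being without TACI short replicate 2. The additional genes were HSPA8 and HSPH1. In TACI short it went from 3 to 5 with DESeq2, column totals or upper-quartile factors, the additional genes being HSP90AA1 and HSPB1. The count called lower in TACI long went from 3 to 1 with no filter and ranged from 1 to 3 with each library left out, the 1 being without any 1 of the TACI long replicates or control replicate 1. The cause was not tested. Of 30 mean CPM values, 20 moved by at least 1 SD with TMM-scaled library sizes. Deviations of same-numbered replicates of different groups had r from -0.49 to 0.59 over 9 pairs, 5 of them over 0.1. By replicate 1, 2 and 3, r was 0.59, 0.38 and 0.30 between control and TACI short. It was -0.18, 0.21 and -0.27 between control and TACI long, and -0.43, 0.24 and -0.49 between TACI long and TACI short. Differently numbered pairs ran from -0.59 to 0.57. These values do not settle whether the numbers pair the samples. With the replicate number as a block, 8620, 10501 and 11495 genes were called in TACI long against control, TACI short against control and TACI short against TACI long, beside 8518, 10435 and 11474 without it, and HSPA8 in TACI long (0.09, adjusted p = 0.0304) and HSP90AA1 in TACI short (0.08, adjusted p = 0.0235) came to be called. Depth limits HSPA1A, at 35 to 100 counts a library, and HSPB1, at 17 to 239.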
